A study of Mus musculus with 4 samples.

Results

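The cells described here are non-classical monocytes of mouse B16-F10 melanoma tumours, 2732 of 35411 cells that passed the filters in 4 single-cell RNA libraries. They were chosen by their counts of a few genes. A cell was a member if it had at least 300 detected genes and at most 10% mitochondrial UMIs (unique molecular identifiers, each standing for 1 captured RNA molecule), at least 1 UMI of Ace, at least 2 UMIs of Treml4, Adgre4 and Ear2 together, fewer than 10 UMIs of C1qa, C1qb and C1qc together, fewer than 5 UMIs of Nos2, and none of Cd3d, Cd3e, Cd3g or Flt3. The rule found 708 members among 9720 cells of the combination library, 839 among 7906 cells of the CD40 library, 805 among 9938 cells of the PD1 library and 380 among 7847 cells of the control library.

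B16-F10 is a melanoma line of mice that grows as a transplanted tumour. The CD40 antibody, or dilution buffer in its place, was injected into the tumour, and the PD1 antibody or an IgG was given intravenously, at days 8 and 11, with the tumours dissected at day 14. The combination group received both antibodies, the CD40 group the antibody to CD40, the PD1 group the antibody to PD1, and the control group IgG; which of the single-antibody groups also received buffer or IgG is not stated group by group. Each group is 1 library made from the pooled cells of 6 mice, sorted as live CD45+ cells, so differences between the groups have no replicate check and no test between groups is given. All 4 groups share the tumour line, the days and the sort. The labels give neither the strain, sex and age of the mice nor whether a cell came from inside a tumour vessel.

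Non-classical monocytes are a blood monocyte type that patrols the inner wall of vessels. In mice they carry little Ly6C, depend on the transcription factor Nr4a1, and arise largely from classical, Ly6C-high monocytes. Their Fc gamma receptor IV, encoded by Fcgr4, binds IgG, and their integrin LFA-1, with the subunit Itgal, holds them on endothelium. In tumours they have been studied in mice both for clearing tumour material from vessels and for recruiting other leukocytes. CD40 is a receptor on antigen-presenting cells that agonist antibodies engage, and PD1 is an inhibitory receptor mainly of T cells.

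The libraries held 8132 to 10158 barcodes and 117735875 to 164755549 UMIs. The median depth of a member was 11873 UMIs (combination), 10663 (CD40), 8464 (PD1) and 8268.5 (control), and their summed UMIs were 9056535, 9907183, 7507384 and 3422991 in the same order of libraries. Members of the combination and CD40 libraries were thus the deeper ones. Levels are given as CPM, the count of a gene per 1000000 UMIs, with UMIs summed over the members of a library. Intervals are 95% exact intervals that cover counting error only, not differences between mice. Pairs of libraries shared 94 to 144 barcode sequences among all their barcodes, and 0 among members. A doublet score of at least 0.25 was reached by 6, 6, 10 and 0 members of the combination, CD40, PD1 and control libraries.

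The genes of the rule are high in the members by construction, and their values are given as a description. Ace, the angiotensin-converting enzyme, had a median of 5 UMIs per member in the combination library, 6 in the CD40 library, 4 in the PD1 library and 4 in the control library. Among cells with at least 2 Cd3 UMIs (T cells, median depth 13497, 13097.5, 11180 and 8249 UMIs in the same order), 3.05% (combination), 2.21% (CD40), 3.90% (PD1) and 1.84% (control) had an Ace UMI, a level that free RNA in the droplets can give. Treml4, a receptor of the TREM family, measured 301 (combination), 331 (CD40), 245 (PD1) and 223 CPM (control) in the members. Adgre4, an adhesion G protein-coupled receptor, measured 343 (combination), 397 (CD40), 341 (PD1) and 351 CPM (control). Ear2, a ribonuclease, measured 156 (combination), 185 (CD40), 269 (PD1) and 274 CPM (control). Treml4 was highest in the CD40 library and Ear2 in the control library, and Adgre4 differed least between libraries. Members with exactly 2 UMIs of the 3 marker genes numbered 45 (combination), 30 (CD40), 99 (PD1) and 35 (control), and cells with 1 that met every other limit numbered 42 (combination), 42 (CD40), 96 (PD1) and 51 (control). Itgal, which the rule did not use, measured 362 (combination), 334 (CD40), 281 (PD1) and 386 CPM (control) in the cells just inside and 202 (combination), 243 (CD40), 299 (PD1) and 245 CPM (control) in those just outside.

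The label was checked with 11 genes of non-classical monocytes outside the rule. Against classical monocytes of the same libraries (at least 5 Ly6c2 UMIs), 9 of the 11 were called higher in the non-classical monocytes. The classical monocytes also had no UMI of Ace, Treml4, Adgre4 or Ear2. They met the same limits on C1q, Nos2, Cd3 and Flt3 as the members. A gene was called at an adjusted p under 0.05 and a fold of at least 2 in edgeR's quasi-likelihood test on the 4 library pairs. The Benjamini-Hochberg adjustment ran over all genes tested. In this comparison 631 of 11444 genes tested (5.51%) were called higher and 987 (8.62%) lower in the non-classical monocytes, with a median log2 ratio of 2.59 for the 11 genes and -0.01 for all genes. The genes of the rule and Ly6c2 were left out. The other genes come from the same cells as the rule's genes, so one that varies with them in single cells had to differ, and the p-values say how alike the difference was in the 4 libraries.

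Nr4a1, the transcription factor on which these cells depend, measured 371 (combination), 446 (CD40), 446 (PD1) and 502 CPM (control) in the non-classical monocytes, against 50.99 (combination), 43.6 (CD40), 45.5 (PD1) and 36.1 CPM (control) in the classical monocytes. The ranges did not overlap, and the means were 441 ± 53.7 CPM in the non-classical and 44.0 ± 6.14 CPM in the classical monocytes (SD, n = 4 libraries each, log2 ratio 3.29 ± 0.13 (SE), edgeR adjusted p = 3.7e-05). Cd300e, a receptor of the CD300 family, was near absent from classical monocytes and measured 82.3 ± 23.5 CPM in the non-classical and 1.41 ± 0.726 CPM in the classical monocytes (SD, n = 4 each, log2 ratio 5.81 ± 0.35 (SE), edgeR adjusted p = 0.0001). Cx3cr1, the receptor for the endothelial chemokine fractalkine, averaged 217 ± 39.5 CPM in the non-classical and 36.1 ± 12.3 CPM in the classical monocytes (log2 ratio 2.59). Itgal averaged 527 ± 22.1 CPM in the non-classical and 118 ± 23.8 CPM in the classical monocytes, Spn, which encodes CD43, 176 ± 20.8 CPM in the non-classical and 39.3 ± 20.8 CPM in the classical monocytes, and Pou2f2, a transcription factor of the octamer family, 453 ± 40.0 CPM in the non-classical and 62.2 ± 11.7 CPM in the classical monocytes. The metabolic enzyme Eno3 and the G protein subunit Gngt2 had log2 ratios of 5.89 and 3.27, and the peptidoglycan-binding protein Pglyrp1 one of 2.40. Fcgr4 and Cebpb were not called. Cebpb encodes a transcription factor needed for the survival of these monocytes in mice and averaged 2375 ± 217 CPM in the non-classical and 1768 ± 136 CPM in the classical monocytes (log2 ratio 0.40 ± 0.11 (SE), edgeR adjusted p = 0.026), a difference under 2-fold. Fcgr4 averaged 342 ± 131 CPM in the non-classical and 190.2 ± 89.2 CPM in the classical monocytes (log2 ratio 0.83 ± 0.31 (SE), edgeR adjusted p = 0.072), and its spread over the 4 libraries of the non-classical monocytes was wide. The check genes therefore stood with the label in all but these 2 cases. The gates on both sides used the rule's genes, which favours this outcome for any gene that varies with them.

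**Figure D1:**
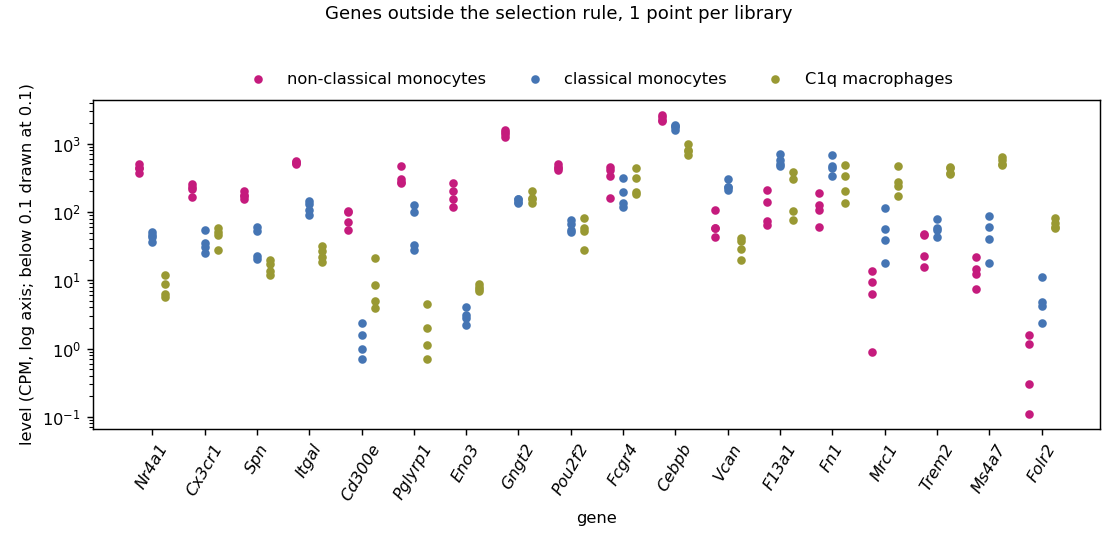
Levels (CPM, log axis, values below 0.1 drawn at 0.1) of 18 genes that the rule did not use, in non-classical monocytes, classical monocytes and C1q macrophages, with 1 point per library. Nr4a1 lay between 371 and 502 CPM in the non-classical monocytes, above all 8 points of the other 2 cell groups, while Fcgr4 overlapped between the groups.

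By the fold alone, the genes named as highest in the non-classical against the classical monocytes, among 241 that did not overlap between the cell groups and averaged at least 50 CPM, were led by Lilra5, an activating leukocyte receptor, at 72.3 ± 27.3 CPM in the non-classical and 0.796 ± 0.319 CPM in the classical monocytes (log2 ratio 6.37). Slc12a2, a sodium, potassium and chloride cotransporter, averaged 70.7 ± 16.3 CPM in the non-classical and 1.05 ± 0.118 CPM in the classical monocytes. Grk3, a kinase of G protein-coupled receptors, averaged 222 ± 4.37 CPM in the non-classical and 17.7 ± 3.77 CPM in the classical monocytes, and Hfe, a regulator of iron uptake, 135 ± 27.8 CPM in the non-classical and 13.4 ± 6.30 CPM in the classical monocytes. Pot1b, a telomere-binding protein, Nxpe4 and Tiam2, an activator of Rac, had log2 ratios of 3.55, 3.16 and 3.12. Hpgd, the enzyme that degrades prostaglandins, averaged 98.8 ± 58.3 CPM in the non-classical and 9.89 ± 6.04 CPM in the classical monocytes, and it differed between the groups of mice, as given further on.

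Among the genes lower in the non-classical monocytes, 10 of the 12 named by the rule were genes of natural killer cells such as Gzma and Ncr1. The classical gate held cells that also met the gate for natural killer cells, 120 of 667 in the combination library, 108 of 560 in the CD40 library, 76 of 1078 in the PD1 library and 50 of 659 in the control library. A purer classical gate, added after these values were seen, left those cells out and asked for at least 3 UMIs of Csf1r and Lyz2 together. With it, 691 genes were called higher and 742 lower in the non-classical monocytes, of which 506 and 589 were also called with the first gate. The named lower genes were then Emp1 (log2 ratio -3.90), the chemokines Ccl2 (-3.88), Ccl7 (-3.75), Ccl12 (-3.45) and Pf4 (-3.74), the complement receptor C3ar1 (-3.61), the scavenger receptor Stab1 (-3.54), the endocytic adaptor Dab2 (-3.59), the arginine-degrading enzyme Arg1 (-3.70), Mmp19 (-3.55), Dmkn (-3.73) and the interleukin receptor Il7r (-3.34). All 9 check genes named above were called with this gate too.

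Lists of genes differed in how many members were called against classical monocytes, where 5.51% of all genes were called higher and 8.62% lower. Of 15 genes of monocyte survival and fate, 7 were called higher and 1, Bcl2l1, lower in the non-classical monocytes. Klf2, a factor of quiescence and homing, averaged 607 ± 85.8 CPM in the non-classical and 215 ± 119.9 CPM in the classical monocytes, and Klf4, needed for monocyte development in mice, 133 ± 18.9 CPM in the non-classical and 27.8 ± 3.93 CPM in the classical monocytes. Hes1, a Notch target, had a log2 ratio of 3.64, and the survival factor Bcl2 one of 2.04. Csf1r, the receptor for the growth factor of macrophages, had a log2 ratio of 1.16 with the first gate and of 0.84 with the purer gate, where it was not called; that gate itself asks for Csf1r. Of 9 tested genes of classical monocytes, 4 were called lower, among them the matrix genes Vcan and Fn1, and F13a1, a clotting factor. Ccr2, the receptor for exit from the bone marrow, averaged 363 ± 132 CPM in the non-classical and 669 ± 129 CPM in the classical monocytes (log2 ratio -0.97), just short of the 2-fold limit, and passed it with the purer gate (-1.21). Among 21 trafficking genes, 5 were called higher and 3 lower, with a median log2 ratio of 0.02. The egress receptor S1pr5 (2.26, and 6.55 with the purer gate), the integrin subunit Itga4 (1.64) and the endothelial contact molecule Pecam1 (1.60) were higher, and the chemokine receptor Ccr1 (-2.25) lower. Of 14 tested chemokines 10 were called lower and 0 higher, of 12 glycolysis and hypoxia genes 9 were called lower and 0 higher, and of 13 tested genes of macrophage differentiation 8 were called lower and 0 higher. None of the 13 MHC class I genes or the 9 MHC class II genes was called in either direction by edgeR, and with the purer gate the counts were also 0.

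Against C1q macrophages of the same libraries (at least 30 UMIs of C1qa, C1qb and C1qc together), 1733 of 11926 genes tested (14.5%) were called higher and 2012 (16.9%) lower in the non-classical monocytes. The C1q macrophages also had no UMI of Ace, Treml4, Adgre4 or Ear2, and met the members' limits on Nos2, Cd3 and Flt3. Of the 11 check genes 10 were called higher, all but Fcgr4, with a median log2 ratio of 3.29. S1pr5 averaged 76.1 ± 10.2 CPM in the non-classical and 0.420 ± 0.265 CPM in the C1q macrophages (SD, n = 4 each, log2 ratio 7.49 ± 0.29 (SE), edgeR adjusted p = 1.6e-06). Pglyrp1 averaged 328 ± 94.2 CPM in the non-classical and 2.09 ± 1.72 CPM in the C1q macrophages, and Ceacam1, an adhesion molecule, 147 ± 33.2 CPM in the non-classical and 3.16 ± 0.398 CPM in the C1q macrophages. Serpinb2, an inhibitor of plasminogen activators, averaged 96.1 ± 33.5 CPM in the non-classical and 1.05 ± 0.994 CPM in the C1q macrophages, and Nfe2, a transcription factor known from megakaryocytes and red cell precursors, 72.8 ± 8.55 CPM in the non-classical and 1.40 ± 0.371 CPM in the C1q macrophages. Scnn1a, a subunit of the epithelial sodium channel, had a log2 ratio of 5.56, with Skint3 at 6.05 and Ccdc88c at 5.75.

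The genes lower in the non-classical monocytes than in C1q macrophages held many of resident macrophages. All 14 tested genes of macrophage differentiation were called lower, among them the mannose receptor Mrc1 (-5.40), the folate receptor Folr2 (-6.62), the lipid receptor Trem2 (-3.80) and the efferocytosis receptor Mertk (-3.89); the rule itself kept C1q-rich cells out. Gas6, a bridge to apoptotic cells, averaged 0.0757 ± 0.151 CPM in the non-classical and 58.3 ± 31.1 CPM in the C1q macrophages, and the chemokine Ccl8 9.40 ± 7.25 CPM in the non-classical and 1523 ± 344 CPM in the C1q macrophages. The growth factor Igf1 averaged 1.05 ± 1.10 CPM in the non-classical and 103 ± 71.0 CPM in the C1q macrophages, and Stab1 5.35 ± 2.57 CPM in the non-classical and 284 ± 89.99 CPM in the C1q macrophages. All 12 proliferation genes were called lower as well, with Mki67 at -3.65 and Top2a at -3.46. Against classical monocytes 3 of 12 were called lower, and with the purer gate 0 of 11 were called (median log2 ratio 0.43). The C1q macrophages were deeper than the members, with medians of 38131.5 (combination), 38514.5 (CD40), 21273.5 (PD1) and 23747 UMIs (control). The part of depth in these differences was not tested. Of 15 genes of survival and fate 10 were called higher than in C1q macrophages, with Hes1 at 6.26 and Klf2 at 2.99. Leaving out any 1 of the 4 libraries gave between 1329 and 1684 calls against classical monocytes and between 3582 and 3925 against C1q macrophages, where all 4 gave 1618 and 3745.

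The members were not uniform. Ly6c2, the gene of the Ly6C antigen that marks classical monocytes, measured 996 CPM in the combination library, 984 in the CD40 library, 885 in the PD1 library and 663 in the control library, close to or above its level in T cells of the same libraries, 1002 (combination), 853 (CD40), 600.3 (PD1) and 511 CPM (control), a cell type that itself can express it. The median member had only 2 UMIs in the combination library, 3 in the CD40 library and 1 in each of the PD1 and control libraries, while the 90th percentile was 40.3, 34, 25.6 and 18 UMIs in the same order. With every cell thinned to 5000 UMIs, 41.9% (combination), 49.1% (CD40), 44.0% (PD1) and 42.3% (control) of members kept at least 2 Ly6c2 UMIs, and 44.9% (combination), 39.5% (CD40), 43.8% (PD1) and 43.6% (control) kept none. Thinning left out 37, 61, 127 and 68 shallower members of the combination, CD40, PD1 and control libraries.

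The 2 kinds of members differed in the same direction in all 4 libraries for the genes of monocyte maturation. Spn measured 124 (combination), 172 (CD40), 93.3 (PD1) and 136 CPM (control) in members with Ly6c2, against 259.8 (combination), 293 (CD40), 225 (PD1) and 235 CPM (control) in members without it. Nr4a1 measured 316 (combination), 382 (CD40), 361 (PD1) and 353 CPM (control) in members with Ly6c2, against 528 (combination), 623 (CD40), 598 (PD1) and 718 CPM (control) in members without it. Cd300e was likewise lower in members with Ly6c2. Fcgr4 measured 270.5 (combination), 309.9 (CD40), 256 (PD1) and 102 CPM (control) in members with Ly6c2, against 797 (combination), 691 (CD40), 436 (PD1) and 210.3 CPM (control) in members without it. Ccr2 ran the other way and measured 459 (combination), 254 (CD40), 536 (PD1) and 680.3 CPM (control) in members with Ly6c2, against 97.7 (combination), 82.7 (CD40), 295 (PD1) and 312 CPM (control) in members without it. Plac8 and Cxcl9 were also higher in members with Ly6c2 in all 4 libraries. Nr4a1 in the members without Ly6c2 was above the level of all members, and even the members with Ly6c2 were above the 44.0 ± 6.14 CPM of classical monocytes. The levels of all members and of classical monocytes are from cells that were not thinned. Members with Ly6c2 were the deeper cells before thinning, with median depths of 15217, 13000, 10564 and 10257 UMIs against 9580, 9083, 7988 and 7828 in the combination, CD40, PD1 and control libraries. Thinning gave every member the same number of UMIs, and any further part of depth in these differences was not tested.

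The share of non-classical monocytes among all filtered cells was 7.28% (6.78% to 7.82%) in the combination library, 10.6% (9.94% to 11.3%) in the CD40 library, 8.10% (7.57% to 8.65%) in the PD1 library and 4.84% (4.38% to 5.34%) in the control library. The control library was lowest and the CD40 library highest, and these 2 intervals do not overlap any other. The log2 ratio of shares was 1.132 for CD40 against control, -0.15 for combination against PD1, 0.74 for PD1 against control and -0.54 for combination against CD40. Among myeloid cells only, the shares were 21.2% (combination), 21.5% (CD40), 14.9% (PD1) and 9.49% (control), and the order of combination and PD1 turned round, with a log2 ratio of 0.51, while combination and CD40 differed by -0.02. With a stricter gate (at least 2 Ace UMIs and 4 of the other markers), the shares of all cells were 5.73% (combination), 9.09% (CD40), 5.27% (PD1) and 3.28% (control). With cells thinned to 5000 UMIs before the gate they were 6.48% (combination), 9.48% (CD40), 5.90% (PD1) and 3.55% (control). The combination library was below PD1 with the first gate and with a looser one (7.72% in the combination, 9.07% in PD1), and above it with the stricter gate, in thinned cells and among myeloid cells, so the direction between these 2 libraries depended on gate, depth and denominator. T cells made up much of the denominator, with 4067 cells in the combination library, 2580 in the CD40 library, 2437 in the PD1 library and 2014 in the control library.

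**Figure D2:**
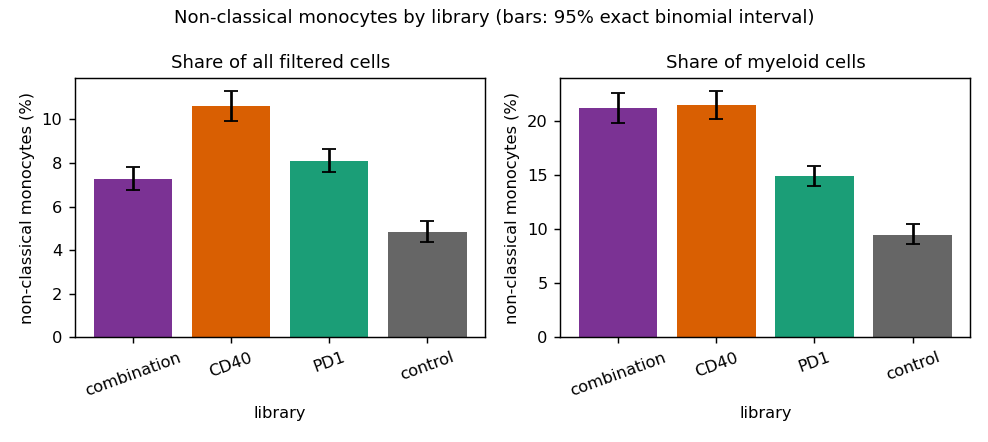
Share (%) of non-classical monocytes among all filtered cells (left) and among myeloid cells (right) in each library, with bars for the 95% exact binomial interval. The control library is lowest in both panels, at 4.84% and 9.49%, and the combination library lies below PD1 on the left (7.28% against 8.10%) and above it on the right (21.2% against 14.9%).

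Libraries with and without the CD40 antibody were compared for the members' genes in 2 comparisons, of CD40 with control and of combination with PD1. Each group is 1 library, so a difference by antibody cannot be told apart from a difference between libraries. Among 7589 genes with a mean of at least 10 CPM in the members, 141 (1.86%) were at least 2-fold higher and 110 (1.45%) at least 2-fold lower in CD40 than in control. In the comparison of combination with PD1, 73 (0.962%) were higher and 78 (1.03%) lower in the combination. With genes under 10 CPM kept, 494 were higher and 1720 lower in CD40 than in control, and 455 higher and 781 lower in the combination than in PD1. Genes past 2-fold in the same direction in both were kept if they had at least 50 CPM and 30 UMIs in the higher library. They also needed at least 0.2 times the level of the highest other cell group there, and some gene families were left out. These genes numbered 22 higher and 14 lower with the antibody, and the 12 with the largest smaller ratio are named in each direction. The 2 comparisons share no library. A gene named by this rule had to differ, so its ratios are a description.

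Among the genes higher with the CD40 antibody, 2 were receptors for formyl peptides and 2 were GTPases of cell-autonomous defence. Fpr1, a receptor for bacterial and mitochondrial formyl peptides, measured 88.2 CPM in the combination library, 64.7 CPM in the CD40 library, 12.8 CPM in the PD1 library and 8.76 CPM in the control library. Both libraries with the CD40 antibody were above both without it, with log2 ratios of 2.88 (95% interval 2.36 to 3.46) for CD40 against control and 2.79 (95% interval 2.48 to 3.11) for combination against PD1. Its relative Fpr2 measured 127 (combination), 96.7 (CD40), 29.4 (PD1) and 25.4 CPM (control). Both receptors are also neutrophil genes, and neutrophils of the same libraries had 320 (combination), 171 (CD40), 74.0 (PD1) and 76.7 CPM (control) of Fpr1; the part of neutrophil RNA in the members' level was not tested.

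Iigp1, an interferon-inducible GTPase that attacks vacuoles of parasites, measured 456 CPM in the combination library, 275 CPM in the CD40 library, 92.6 CPM in the PD1 library and 14.0 CPM in the control library, with log2 ratios of 4.30 (95% interval 3.88 to 4.74) and 2.30 (95% interval 2.19 to 2.42). The control library was lowest, and its 14.0 CPM lay below the 73.5 CPM of T cells and the 62.5 CPM of classical monocytes in that library. Gbp6, a guanylate-binding protein, measured 128 (combination), 81.1 (CD40), 46.1 (PD1) and 11.4 CPM (control). Serpina3g, a serine protease inhibitor, measured 487 (combination), 259 (CD40), 198 (PD1) and 35.3 CPM (control), against 233 (combination), 264 (CD40), 202 (PD1) and 209 CPM (control) in T cells of the same libraries. Only in the combination library did the members exceed the T cells, and in the control library they were the farthest below them.

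Upp1, uridine phosphorylase, measured 575 CPM in the combination library, 372 CPM in the CD40 library, 92.8 CPM in the PD1 library and 35.1 CPM in the control library, with log2 ratios of 3.41 (95% interval 3.15 to 3.68) and 2.63 (95% interval 2.52 to 2.75). Neutrophils of the same libraries had more Upp1, at 1779 (combination), 739 (CD40), 330 (PD1) and 145 CPM (control). Ly6i, a surface protein of the Ly6 family, measured 1552 CPM in the combination library, 1488 CPM in the CD40 library, 513 CPM in the PD1 library and 186 CPM in the control library. The log2 ratio of Ly6i was 3.001 (95% interval 2.89 to 3.12) for CD40 against control and 1.60 (95% interval 1.55 to 1.65) for combination against PD1, and 0.06 for combination against CD40. Neutrophils had less Ly6i than the members, at 1011 (combination), 671 (CD40), 170 (PD1) and 26.6 CPM (control). The part of neutrophil RNA in the members' levels of Upp1 and Ly6i was not tested. Cfb, complement factor B, measured 427 (combination), 252 (CD40), 145 (PD1) and 53.2 CPM (control). Lap3, a leucine aminopeptidase, measured 123 (combination), 77.4 (CD40), 47.6 (PD1) and 19.0 CPM (control), and Vamp5, a protein of vesicle fusion, 84.9 (combination), 69.3 (CD40), 35.7 (PD1) and 22.8 CPM (control). Klhl6, a ubiquitin ligase adaptor known from B cells, measured 89.4 (combination), 69.5 (CD40), 30.4 (PD1) and 18.4 CPM (control), and Shtn1, known from neurons, 63.5 (combination), 56.1 (CD40), 21.2 (PD1) and 18.4 CPM (control). In each of these 12 genes both libraries with the CD40 antibody were above both without it, which the naming rule made likely beforehand.

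The genes lower with the CD40 antibody were led by Apoe, the apolipoprotein E of lipid transport, on chr7:19696109-19699188 (GRCm38, minus strand). Apoe measured 83.5 CPM in the combination library, 95.7 CPM in the CD40 library, 1279 CPM in the PD1 library and 1629.6 CPM in the control library. The 2 libraries with the antibody were more than 10-fold below the 2 without it, with log2 ratios of -4.09 (95% interval -4.19 to -3.99) for CD40 against control and -3.94 (95% interval -4.05 to -3.83) for combination against PD1. In thinned cells, the share of members with an Apoe UMI was 16.8% in the combination library, 18.3% in the CD40 library, 77.0% in the PD1 library and 84.6% in the control library, against 3.67 (combination), 6.74 (CD40), 14.5 (PD1) and 13.9% (control) in T cells, and before thinning 25.7 (combination), 25.9 (CD40), 83.0 (PD1) and 90.5% (control). Apoe is a main gene of macrophages. T cells had 90.5 (combination), 187 (CD40), 329.8 (PD1) and 379 CPM (control), classical monocytes 105 (combination), 179 (CD40), 782 (PD1) and 1117 CPM (control) and C1q macrophages 1683 (combination), 1725 (CD40), 3042 (PD1) and 4094 CPM (control), so each of these also had less Apoe in the libraries with the CD40 antibody, and the part of free RNA in the members' difference was not tested. Members without any C1q UMI had 77.2 (combination), 105 (CD40), 1327 (PD1) and 1729 CPM (control), which is close to all members.

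Trf, transferrin, measured 14.4 (combination), 17.3 (CD40), 129 (PD1) and 167 CPM (control), with log2 ratios of -3.27 and -3.17. Classical monocytes had 24.9 (combination), 21.6 (CD40), 85.1 (PD1) and 115 CPM (control) of Trf. C1q macrophages and T cells also had less Trf in the libraries with the CD40 antibody. The part of free RNA in the members' levels of Trf and the genes below was not tested. Tmem176b and Tmem176a, neighbouring genes of membrane proteins of myeloid cells, measured 49.5 (combination), 46.8 (CD40), 228 (PD1) and 277 CPM (control) and 31.0 (combination), 31.7 (CD40), 121 (PD1) and 154 CPM (control). Apoc2, the cofactor of lipoprotein lipase, measured 104 (combination), 149 (CD40), 316 (PD1) and 382 CPM (control). Cd83, a protein of activated antigen-presenting cells, measured 29.6 (combination), 19.3 (CD40), 93.6 (PD1) and 103 CPM (control), and it was lowest in the CD40 library. Classical monocytes had 24.4 (combination), 25.4 (CD40), 112 (PD1) and 76.6 CPM (control) of Cd83. Hpgd measured 44.2 (combination), 52.7 (CD40), 154 (PD1) and 145 CPM (control), and was higher in the non-classical than in the classical monocytes of every library. Sulf2, a sulfatase of the cell surface, Tcf4, an E protein, Slc9a9, an endosomal sodium and proton exchanger, and Itgb5, an integrin subunit, were also among the 12, with levels of 20.1 to 41.6 CPM in the libraries with the CD40 antibody and 55.8 to 85.6 CPM in those without it. In classical monocytes Sulf2 was not split by the CD40 antibody, at 37.4 (combination), 65.2 (CD40), 53.1 (PD1) and 55.3 CPM (control). The groups with and without the CD40 antibody did not overlap for any of the 12, which the naming rule made likely beforehand.

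**Figure D3:**
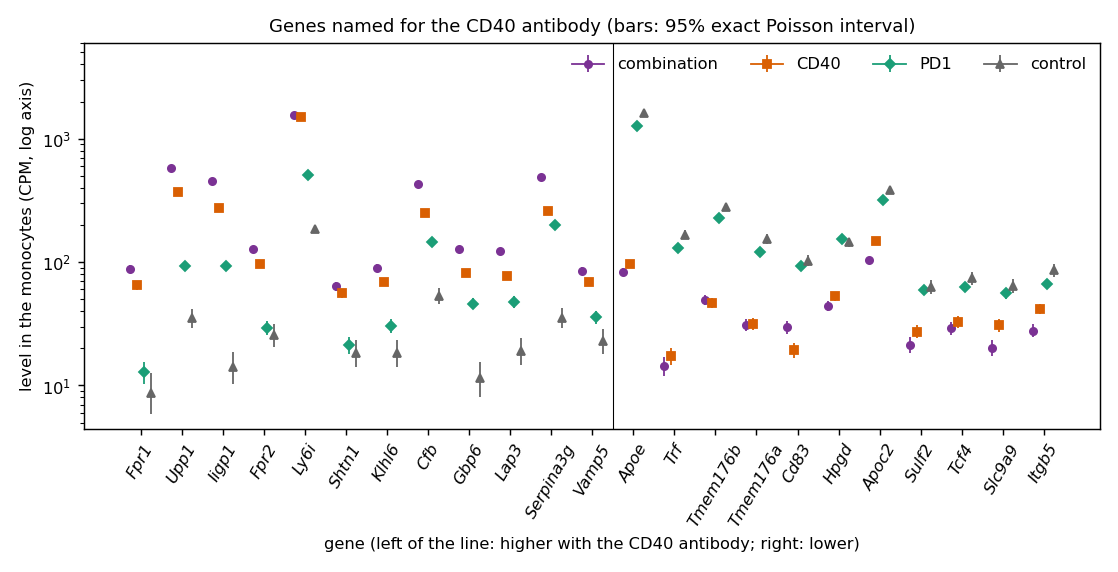
Levels (CPM, log axis, 95% exact Poisson intervals) in the non-classical monocytes of the 12 genes named as higher and 11 of the 12 named as lower with the CD40 antibody, by library. Apoe stood at 83.5 CPM in the combination and 95.7 CPM in the CD40 library, against 1279 CPM in the PD1 and 1630 CPM in the control library.

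Libraries with and without the PD1 antibody were compared in PD1 against control and combination against CD40, a pair that again shares no library. Each library stands in 2 of the 4 comparisons, so the comparisons of the 2 antibodies are not independent of each other. At least 2-fold higher were 71 of 7589 genes (0.936%) in PD1 against control and 27 (0.356%) in combination against CD40, and at least 2-fold lower were 17 (0.224%) and 16 (0.211%). The balance depended on the processing, with 361 higher and 1114 lower in PD1 against control when genes under 10 CPM were kept, and 23 higher and 51 lower in combination against CD40 without the C1q limit. Genes past 2-fold in the same direction in both, within the limits used to name genes for the CD40 antibody, numbered 6 higher and 0 lower. Those limits left out genes under 0.2 times the level of the highest other cell group. The 2 measured natural killer markers were also past 2-fold higher in both comparisons. The ratios of genes named by this rule are again a description. Cxcl9, a chemokine that draws T cells through the receptor Cxcr3, measured 325 CPM in the combination library, 105 CPM in the CD40 library, 741 CPM in the PD1 library and 140.2 CPM in the control library. Both libraries with the PD1 antibody were above both without it, with log2 ratios of 2.40 (95% interval 2.27 to 2.54) and 1.64 (95% interval 1.53 to 1.74). Cxcl10, its relative, measured 546 CPM in the combination library, 215 CPM in the CD40 library, 919.6 CPM in the PD1 library and 388 CPM in the control library, with log2 ratios of 1.24 (95% interval 1.16 to 1.33) and 1.34 (95% interval 1.27 to 1.42). Both chemokines were lower with the CD40 antibody, at -0.42 and -0.85 for CD40 against control and -1.19 and -0.75 for combination against PD1. Classical monocytes had more, with 575 (combination), 329 (CD40), 1678 (PD1) and 414 CPM (control) of Cxcl9.

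In thinned cells Cxcl9 was found in 22.8 (combination), 9.64 (CD40), 30.4 (PD1) and 9.94% (control) of members, against 5.67 (combination), 6.70 (CD40), 11.8 (PD1) and 5.26% (control) of T cells, and Cxcl10 in 31.1 (combination), 15.0 (CD40), 32.9 (PD1) and 13.1% (control) of members, against 6.83 (combination), 4.82 (CD40), 11.0 (PD1) and 5.78% (control) of T cells. Before thinning the shares of members were 28.4 (combination), 16.7 (CD40), 31.7 (PD1) and 8.95% (control) for Cxcl9 and 39.1 (combination), 19.5 (CD40), 34.4 (PD1) and 14.7% (control) for Cxcl10. The members were above the T cells in every library for both chemokines, and the share was higher in each library with the PD1 antibody than in either without it. Socs1, a feedback inhibitor of interferon signalling, measured 256 (combination), 119.6 (CD40), 285 (PD1) and 98.2 CPM (control). Gbp4, a guanylate-binding protein, measured 168 (combination), 84.1 (CD40), 90.8 (PD1) and 22.2 CPM (control), and was higher with either antibody. Cnn3, an actin-binding calponin, measured 71.0 (combination), 23.9 (CD40), 97.8 (PD1) and 29.2 CPM (control), and Tagap, a regulator of small GTPases, 59.5 (combination), 22.7 (CD40), 97.6 (PD1) and 43.5 CPM (control).

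Interferon gamma is a main product of activated T and natural killer cells that acts on monocytes. Its receptor has the subunit Ifngr1, and its target genes are known for the promoter elements GAS and ISRE, the second of which Irf1 binds. Of the 21 genes listed for this response, 19 were measured at 10 CPM or more. At least 2-fold higher were 13 of the 19 in PD1 against control, 9 in CD40 against control, 4 in combination against CD40 and 3 in combination against PD1, beside 0.936%, 1.86%, 0.356% and 0.962% of all genes. At least 2-fold lower was 1, Cxcl9, in combination against PD1, beside 1.03% of all genes, and 0 in the other 3 comparisons. The median log2 ratio was 1.24 for PD1 against control, 0.95 for CD40 against control, 0.69 for combination against CD40 and 0.34 for combination against PD1, where the median of all genes lay between -0.03 and -0.02.

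Ifngr1 itself ran slightly the other way and measured 468 (combination), 553 (CD40), 567 (PD1) and 628 CPM (control). Irf1 measured 630.0 (combination), 454 (CD40), 593 (PD1) and 313 CPM (control), and was higher in both libraries with the PD1 antibody than in the library with the same CD40 treatment that lacked it. Among the GTPases, Gbp2 measured 1251 CPM in the combination library, 653 CPM in the CD40 library, 988 CPM in the PD1 library and 253 CPM in the control library. The order of Gbp2 put both libraries with the PD1 antibody above the CD40 library, and the control library last. Gbp5 measured 390.3 (combination), 206 (CD40), 286 (PD1) and 93.8 CPM (control) and Gbp3 215 (combination), 135 (CD40), 169 (PD1) and 69.8 CPM (control), in that same order of libraries. Igtp, an immunity-related GTPase, measured 189.9 (combination), 119 (CD40), 169 (PD1) and 79.5 CPM (control), and Irgm1, which restrains such GTPases, 323 (combination), 218 (CD40), 293 (PD1) and 149 CPM (control). Cd274, which encodes the PD1 ligand PD-L1, measured 428 (combination), 286 (CD40), 226 (PD1) and 126 CPM (control), with its highest level in the combination library. For Cd274, the log2 ratio was 1.19 (95% interval 1.04 to 1.34) for CD40 against control and 0.58 (95% interval 0.51 to 0.65) for combination against CD40. Ido1 was at or under 0.584 CPM in every library.

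**Figure D4:**
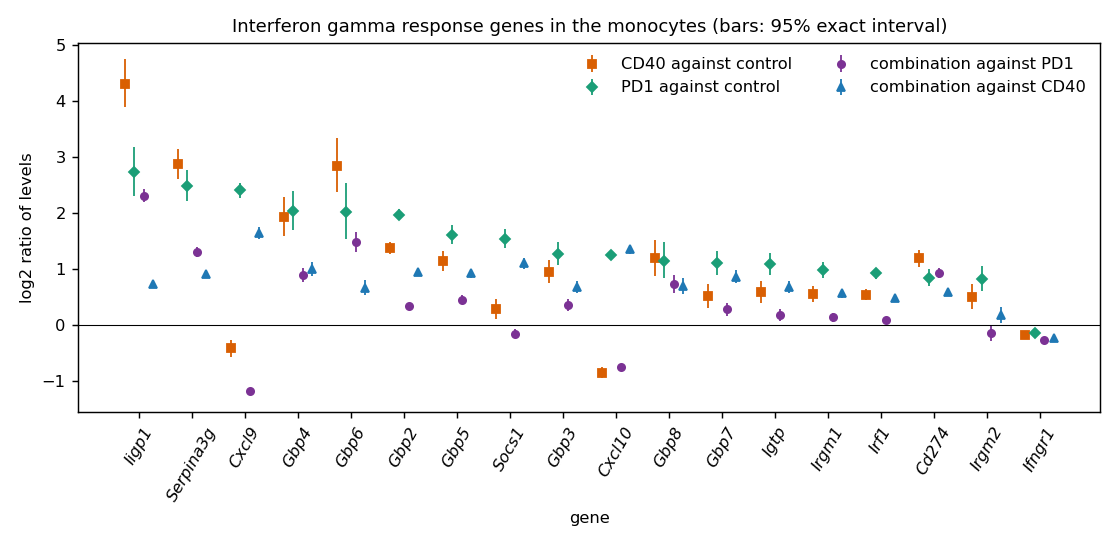
Log2 ratios (95% exact intervals) of 18 of the 19 measured interferon gamma response genes in the non-classical monocytes, in the 4 comparisons. Only Ifngr1 lies below 0 for PD1 against control, while Cxcl9 and Cxcl10 lie above 0 in both comparisons of the PD1 antibody and below 0 in both of the CD40 antibody.

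The promoters of these genes were read to show which of the 2 elements their sequence holds. In the 250 bases before each gene start (RefSeq, mouse build GRCm38.p6), the letters TTCNNNGAA (GAS, which reads the same on both strands) occurred in 7.02% of 32851 promoters, GAAANNGAA (the core of the ISRE, searched on both strands) in 7.13%, and both in 0.752%; the 2 patterns can overlap in a promoter. Of the 21 listed genes 15 matched an entry, 12 of these held the ISRE core and 6 held GAS. Gbp4, Gbp6, Gbp8, Iigp1 and Ido1 were among those with no entry. The sequences are those of Cxcl9, chr5:92328080-92328329 (minus strand), and Cxcl10, chr5:92348890-92349139 (minus strand), the 2 chemokines named for the PD1 antibody, then Gbp2, chr3:142620413-142620662 (plus strand), which was high with either antibody, Igtp, chr11:58199306-58199555 (plus strand), which holds both elements, and Serpina3g, chr12:104235897-104236146 (plus strand), which was named for the CD40 antibody. Capitals mark the GAS or ISRE core, 5′ to 3′ on the gene's strand, and each sequence ends at the base before the start.
Cxcl9: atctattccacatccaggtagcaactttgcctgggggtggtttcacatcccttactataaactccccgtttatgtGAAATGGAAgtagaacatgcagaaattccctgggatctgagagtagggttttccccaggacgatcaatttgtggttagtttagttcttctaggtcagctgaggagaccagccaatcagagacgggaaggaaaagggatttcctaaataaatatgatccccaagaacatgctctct
Cxcl10: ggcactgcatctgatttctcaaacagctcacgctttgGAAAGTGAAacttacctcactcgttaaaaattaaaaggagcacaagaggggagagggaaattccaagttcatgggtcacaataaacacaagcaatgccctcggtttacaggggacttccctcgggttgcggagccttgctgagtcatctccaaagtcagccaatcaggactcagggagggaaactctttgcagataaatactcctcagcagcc
Gbp2: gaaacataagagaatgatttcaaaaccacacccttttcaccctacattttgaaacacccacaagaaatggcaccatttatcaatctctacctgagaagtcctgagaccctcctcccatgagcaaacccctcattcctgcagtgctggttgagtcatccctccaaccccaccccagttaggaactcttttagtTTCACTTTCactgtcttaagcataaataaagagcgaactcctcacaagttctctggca
Igtp: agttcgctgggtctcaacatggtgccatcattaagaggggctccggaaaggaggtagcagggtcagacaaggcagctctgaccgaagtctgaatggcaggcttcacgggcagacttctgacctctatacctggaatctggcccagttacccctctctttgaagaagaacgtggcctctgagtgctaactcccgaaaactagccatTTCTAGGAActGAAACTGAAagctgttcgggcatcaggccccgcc
Serpina3g: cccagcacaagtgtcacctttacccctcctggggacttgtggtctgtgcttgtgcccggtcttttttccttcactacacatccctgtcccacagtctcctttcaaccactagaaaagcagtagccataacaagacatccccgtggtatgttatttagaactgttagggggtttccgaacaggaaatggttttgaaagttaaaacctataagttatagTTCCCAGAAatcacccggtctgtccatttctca

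The ISRE core began 175 bases before the start of Cxcl9, 213 before Cxcl10, 58 before Gbp2 (on the opposite strand, hence TTCACTTTC as printed) and 34 before Igtp, and GAS began 45 bases before Igtp and 33 before Serpina3g. Among the 12 genes named as higher with the CD40 antibody, 7 matched an entry, of which 2 held GAS (Fpr2 and Serpina3g) and 0 the ISRE core. Among the 6 named as higher with the PD1 antibody, 5 matched an entry, of which 3 held the ISRE core (Cxcl9, Cxcl10 and Socs1) and 0 held GAS. Among the 12 named as lower with the CD40 antibody, 8 matched an entry, and 1 start of Apoe held the ISRE core. A match is a match of letters and not evidence that a factor bound there.

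Cell by cell, the interferon gamma response differed in spread as well as level. In members thinned to 5000 UMIs, the median cell held 33 UMIs of the 21 genes in the combination library (10th to 90th percentile 16 to 68), 23 in the CD40 library (11 to 45.3), 20 in the PD1 library (7 to 76) and 9 in the control library (4 to 29.9). The PD1 library reached the highest 90th percentile while its 10th percentile was below that of the CD40 library, so the cells of the PD1 library were the more unequal. Gbp2 was found in 92.7 (combination), 84.1 (CD40), 65.0 (PD1) and 33.7% (control) of members, against 42.1 (combination), 33.2 (CD40), 34.5 (PD1) and 28.6% (control) of T cells. Iigp1 was found in 65.4 (combination), 54.0 (CD40), 14.0 (PD1) and 3.85% (control) of members, against 18.1 (combination), 13.9 (CD40), 18.3 (PD1) and 16.8% (control) of T cells, so the PD1 and control members were below the T cells for this gene and the other two libraries above them.

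Type I interferon genes differed by less. Of 15 measured genes, 0 were 2-fold higher or lower in any of the 4 comparisons. The median log2 ratio was 0.37 for PD1 against control, with all 15 above 0, and -0.11 for CD40 against control. It was 0.26 for combination against CD40, with 13 of the 15 above 0, and -0.28 for combination against PD1, with 13 below 0, which turned to 0.038 in cells thinned before gating. Isg15, a ubiquitin-like protein, measured 433 (combination), 282 (CD40), 569 (PD1) and 361 CPM (control), and Ifit2, an RNA-binding effector, 105 (combination), 72.4 (CD40), 121 (PD1) and 61.9 CPM (control). Mx1 is not among the features.

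Antigen presentation genes were lowest in the control library for most members of both lists. All 13 MHC class I genes were above 0 both for CD40 and for PD1 against control, with medians of 0.71 and 0.54. In CD40 against control 1 of them, the immunoproteasome subunit Psmb9, was at least 2-fold higher, beside 1.86% of all genes. Psmb9 measured 580.1 CPM in the combination library, 526 CPM in the CD40 library, 444 CPM in the PD1 library and 256 CPM in the control library. The peptide transporter Tap1 measured 417 (combination), 345 (CD40), 342 (PD1) and 209 CPM (control), and the heavy chain H2-K1 2862 (combination), 2707 (CD40), 2158 (PD1) and 1654 CPM (control). For MHC class II the medians were 0.55 and 0.38. Of the 9 genes, 0 were 2-fold higher and 1, H2-DMb2, 2-fold lower in CD40 against control, beside 1.86% and 1.45% of all genes. H2-Ab1 measured 2471 (combination), 2349 (CD40), 2294 (PD1) and 1609 CPM (control), the invariant chain Cd74 11208 (combination), 10754 (CD40), 9186 (PD1) and 7053 CPM (control), and the class II transactivator Ciita 115 (combination), 79.2 (CD40), 95.4 (PD1) and 54.0 CPM (control). H2-DMb2 measured 14.1 (combination), 13.1 (CD40), 13.3 (PD1) and 26.3 CPM (control), with the control library highest, and the protease gene Ctss 1702 (combination), 1730.5 (CD40), 1996 (PD1) and 1837 CPM (control), with the PD1 library highest. B cell markers summed to 13.3 (combination), 9.99 (CD40), 4.396 (PD1) and 74.5 CPM (control) in the members, and their part in H2-DMb2 was not tested.

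In thinned members the median cell held 94 UMIs of the 9 class II genes in the combination library, 86 in the CD40 library, 40 in the PD1 library and 29.5 in the control library, whereas the 90th percentiles were 204, 203.6, 264.6 and 188.4 in the same order. The PD1 library had the highest 90th percentile, so its most class II-rich cells exceeded those of the libraries with the CD40 antibody although its median was lower. H2-Ab1 was found in 84.6 (combination), 82.1 (CD40), 65.5 (PD1) and 55.1% (control) of members, against 14.6 (combination), 15.3 (CD40), 22.8 (PD1) and 20.5% (control) of T cells.

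**Figure D5:**
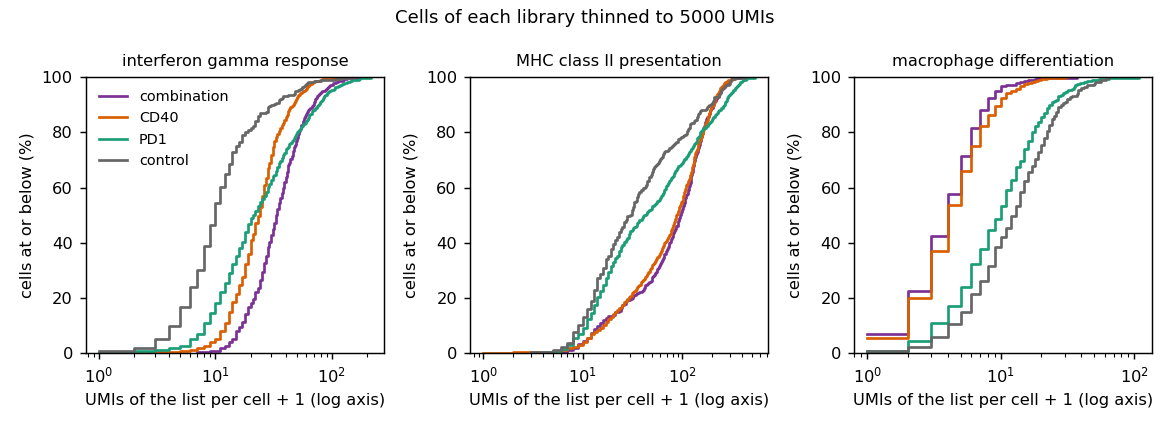
Cumulative share (%) of members, each thinned to 5000 UMIs, by their UMIs of 3 gene lists (plus 1, log axis), 1 line per library. The medians for the interferon gamma response are 33 (combination), 23 (CD40), 20 (PD1) and 9 UMIs (control), and for macrophage differentiation they are 3, 3, 9 and 12 in the same order. The macrophage list includes Apoe.

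Fcgr4, the Fc gamma receptor IV, measured 463 CPM in the combination library, 408 CPM in the CD40 library, 336 CPM in the PD1 library and 163 CPM in the control library. The control library was the lowest, with log2 ratios of 1.33 (95% interval 1.20 to 1.46) for CD40 against control and 1.05 (95% interval 0.91 to 1.18) for PD1 against control, and Fcgr4 was found in 72.6 (combination), 68.8 (CD40), 62.8 (PD1) and 38.8% (control) of thinned members, against 5.93 (combination), 5.24 (CD40), 9.64 (PD1) and 5.58% (control) of T cells. Among 6 Fc receptor genes only Fcgr4 was past 2-fold in these 2 comparisons, beside 1.86% and 0.936% of all genes at least 2-fold higher. Fcgr1, the high-affinity receptor, measured 125 (combination), 123 (CD40), 249 (PD1) and 188 CPM (control), and the inhibitory receptor Fcgr2b 259.7 (combination), 254 (CD40), 389.8 (PD1) and 423 CPM (control), both lower in each library with the CD40 antibody than in either library without it. Fcer1g, the shared signalling chain, measured 4636 (combination), 4414 (CD40), 4410.2 (PD1) and 3747 CPM (control).

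Of the 11 check genes of the cell type, 2 were 2-fold higher in CD40 against control, Fcgr4 and Eno3, beside 1.86% of all genes, and 1 in PD1 against control, Fcgr4, beside 0.936%. None was 2-fold higher in the other 2 comparisons or 2-fold lower in any of the 4. Nr4a1 measured 371 CPM in the combination library, 446 CPM in the CD40 library, 446 CPM in the PD1 library and 502 CPM in the control library. Cx3cr1 measured 165 (combination), 232 (CD40), 214 (PD1) and 258 CPM (control), with the combination library lowest. Cd300e measured 103 (combination), 100.2 (CD40), 72.3 (PD1) and 53.8 CPM (control), and Eno3 206 (combination), 264 (CD40), 156 (PD1) and 118 CPM (control). Itgal measured 501 (combination), 549 (CD40), 518 (PD1) and 541 CPM (control). Of 15 genes of survival and fate 0 were past 2-fold in any of the 4 comparisons. Cebpb measured 2657 (combination), 2425 (CD40), 2163 (PD1) and 2254 CPM (control), Klf2 617 (combination), 715 (CD40), 507 (PD1) and 592 CPM (control) and Bcl2 163 (combination), 188 (CD40), 118 (PD1) and 114 CPM (control). Irf8, a factor of monocyte and dendritic cell fate that interferon gamma induces, measured 431 (combination), 312 (CD40), 533 (PD1) and 288 CPM (control), with both libraries of the PD1 antibody above both without it.

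Of 10 genes of classical monocytes, 4 were at least 2-fold lower and 0 higher in CD40 against control, beside 1.45% of all genes lower, and 1 was lower and 0 higher in combination against PD1, beside 1.03%. Their median log2 ratio was -0.58 for CD40 against control, with 7 of the 10 below 0, and 0.0028 for combination against PD1, with 6 of the 10 above 0. Ccr2 measured 295 CPM in the combination library, 213 CPM in the CD40 library, 446 CPM in the PD1 library and 498 CPM in the control library. The 2 libraries with the CD40 antibody were below the 2 without it, with log2 ratios of -1.23 (95% interval -1.32 to -1.13) and -0.60 (95% interval -0.67 to -0.52). Chil3, a chitinase-like protein, measured 236 (combination), 178 (CD40), 435 (PD1) and 449 CPM (control), and F13a1 73.0 (combination), 65.0 (CD40), 140.0 (PD1) and 209 CPM (control). Vcan, a matrix proteoglycan, measured 58.5 (combination), 43.6 (CD40), 58.3 (PD1) and 107 CPM (control), and Fn1, fibronectin, 59.96 (combination), 108 (CD40), 128 (PD1) and 193 CPM (control). Plac8 went the other way, at 5183 (combination), 4963 (CD40), 3959 (PD1) and 3087 CPM (control). Ly6a, the Sca-1 antigen that interferons induce, measured 1097 CPM in the combination library, 776 CPM in the CD40 library, 609.8 CPM in the PD1 library and 162 CPM in the control library. The control library was far lowest for Ly6a, with log2 ratios of 2.26 (95% interval 2.13 to 2.38) for CD40 and 1.91 (95% interval 1.78 to 2.04) for PD1 against control. How reads shared by near-identical genes were assigned, as among the Ly6, Gbp, H2 and Bcl2a1 families, is not given in the sources used here, so the split within such a family is uncertain.

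Several genes of macrophage differentiation were lower with the CD40 antibody. Of 9 measured genes, Apoe among them, at least 2-fold lower were 3 for CD40 against control and 5 for combination against PD1. These stood beside 1.45% and 1.03% of all genes. In CD40 against control 1, Gpnmb, was 2-fold higher, beside 1.86% of all genes. Trem2 measured 15.6 (combination), 22.3 (CD40), 45.4 (PD1) and 47.0 CPM (control), and Maf, a transcription factor of macrophages, 20.3 (combination), 39.1 (CD40), 64.7 (PD1) and 68.1 CPM (control). Mrc1, Folr2, Cd163 and Cd5l were under 14 CPM in every library. Summed over the list, thinned members had a median of 3 UMIs in the combination and CD40 libraries, 9 in the PD1 library and 12 in the control library. Apoe, described above, is part of this sum. By itself it had medians of 0 (combination), 0 (CD40), 3 (PD1) and 5 UMIs (control) in thinned members. The sum is therefore not separate from the Apoe result. Outside this list, the protease gene Lgmn measured 127 (combination), 149.7 (CD40), 304 (PD1) and 335 CPM (control) and the fatty acid carrier Fabp4 14.5 (combination), 19.8 (CD40), 46.2 (PD1) and 64.0 CPM (control).

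Of 9 measured inflammatory cytokine genes, 9 were above 0 in combination against CD40 and 8 in combination against PD1, with 3 at least 2-fold higher and 0 lower in each, beside 0.356% and 0.962% of all genes higher. Their median log2 ratio was 0.79 for combination against CD40 and 0.42 for combination against PD1. Without the members that met another gate, neutrophils included, these medians were 0.45 and 0.23. Against control, 4 of the 9 were above 0 in CD40 and 6 in PD1. Il1b, interleukin 1 beta, measured 616 CPM in the combination library, 288 CPM in the CD40 library, 497 CPM in the PD1 library and 489.9 CPM in the control library. The CD40 library was lowest and the other 3 lay closer together. Neutrophils of the same libraries had 5842 (combination), 2079 (CD40), 2054 (PD1) and 2075 CPM (control) of Il1b, and the part of neutrophil RNA in the members' level was not tested. Cxcl2, a neutrophil chemokine, measured 344 (combination), 198 (CD40), 56.3 (PD1) and 340.3 CPM (control), with the PD1 library lowest. Ccl7 measured 10.5 (combination), 139 (CD40), 148 (PD1) and 133 CPM (control) and Ccl2 66.0 (combination), 204 (CD40), 230.4 (PD1) and 161 CPM (control), and both were lowest in the combination library. Ccl5 measured 314 (combination), 160.1 (CD40), 319 (PD1) and 31.8 CPM (control), but is an abundant T cell transcript, found in 85.3 (combination), 80.4 (CD40), 76.9 (PD1) and 71.1% (control) of thinned T cells and 24.0 (combination), 21.9 (CD40), 19.6 (PD1) and 5.45% (control) of thinned members, and the part of free RNA in its level in the members was not tested. Spp1, osteopontin, measured 82.7 (combination), 509 (CD40), 122 (PD1) and 172 CPM (control), yet was found in 6.71 (combination), 7.46 (CD40), 6.34 (PD1) and 7.37% (control) of thinned members, against 11.1 (combination), 12.9 (CD40), 20.7 (PD1) and 16.4% (control) of T cells, and in 9.18 (combination), 11.2 (CD40), 7.95 (PD1) and 9.47% (control) of members before thinning. The thinned share of members with an Spp1 UMI was below that of T cells in every library and differed little between libraries, unlike the level. Of 12 measured chemokines, those 2-fold higher and lower numbered 1 and 1 (CD40 against control), 3 and 5 (combination to PD1), 4 and 1 (PD1 to control), and 3 and 4 (combination to CD40). The shares of all genes higher and lower were 1.86% and 1.45%, 0.962% and 1.03%, 0.936% and 0.224%, and 0.356% and 0.211% in the same order. Thbs1, thrombospondin 1, measured 40.4 (combination), 49.8 (CD40), 80.3 (PD1) and 209 CPM (control), with the control library highest.

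Cd40, the receptor of the injected antibody, measured 107 CPM in the combination library, 64.7 CPM in the CD40 library, 124 CPM in the PD1 library and 55.5 CPM in the control library. It was higher in each library with the PD1 antibody than in the library with the same CD40 treatment that lacked it. In thinned cells Cd40 was found in 30.7 (combination), 21.7 (CD40), 34.5 (PD1) and 19.2% (control) of members, against 2.29 (combination), 2.81 (CD40), 5.45 (PD1) and 4.74% (control) of T cells. Among 14 measured genes of CD40 signalling and costimulation, 0 were 2-fold higher and 2, Cd83 and Icosl, 2-fold lower in both comparisons of the CD40 antibody. Traf1, an adaptor of the tumour necrosis factor receptors, measured 143 (combination), 107 (CD40), 102 (PD1) and 73.9 CPM (control), Relb, of the non-canonical NF-kappaB pathway, 94.6 (combination), 76.5 (CD40), 78.7 (PD1) and 57.8 CPM (control), and the costimulator Cd86 111 (combination), 81.3 (CD40), 131 (PD1) and 99.9 CPM (control).

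Of 12 inhibitory receptors, 1, the sialic acid receptor Siglece, was 2-fold higher in CD40 against control, at 70.2 (combination), 60.8 (CD40), 38.8 (PD1) and 29.8 CPM (control), and 1, Cd200r1, was 2-fold lower in combination against PD1. Of all genes, 1.86% were 2-fold higher in CD40 against control and 1.03% 2-fold lower in combination against PD1. Glycolysis and hypoxia genes had 0 of 12 past 2-fold in any comparison, and of the 12 proliferation genes only Pcna and Stmn1 reached 10 CPM, with Mki67 in 3.28 (combination), 2.83 (CD40), 1.62 (PD1) and 2.88% (control) of thinned members, against 29.3 (combination), 28.9 (CD40), 24.7 (PD1) and 20.1% (control) of T cells.

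Markers of other cells were measured in the members beside these results. The 6 neutrophil markers summed to 925 (combination), 750.3 (CD40), 286 (PD1) and 287 CPM (control), and 25, 26, 6 and 2 members of those libraries also met the neutrophil gate. The 4 natural killer markers summed to 304 (combination), 74.9 (CD40), 187 (PD1) and 14.9 CPM (control), mostly Gzma outside the control library, and 6, 4, 10 and 0 members met that gate. Melanoma markers summed to 4.97 (combination), 87.0 (CD40), 4.66 (PD1) and 4.09 CPM (control), with 1 member of the CD40 library in the melanoma gate. T cell markers summed to 9.35 to 20.2 CPM and dendritic cell markers to 9.69 to 24.8 CPM. The eosinophil genes Epx and Prg2 were at 0 in every library, and the endothelial list, at 44.7 to 84.8 CPM, was nearly all Pecam1, which monocytes express. The 11 genes of dissociation stress summed to 1818 (combination), 1537 (CD40), 2188 (PD1) and 2141 CPM (control). Without the members that met another gate, the counts of genes past 2-fold were 250 in CD40 against control, 154 in combination against PD1, 93 in PD1 against control and 35 in combination against CD40, where all members gave 251, 151, 88 and 43.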

How the data were processed

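The deposited values are raw UMI counts for 32285 genes in 4 libraries of 10x Genomics 5′ single-cell RNA, made by the authors with Cell Ranger 7.0.0 on GRCm38, per the submitters' processing notes. Neither the release of the gene annotation nor the treatment of intronic reads is stated in these sources; counting introns would raise mainly long genes.

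The members and gene lists were chosen with earlier results of these data known. UMIs were summed over members per library. Ratios have exact conditional binomial intervals, counts under 3 being set to 3 as bounds, and shares have Clopper-Pearson intervals. Named genes for an antibody had at least 50 CPM and 30 UMIs in the higher library, at least 0.2 times the level of the highest other cell group there, and a 2-fold ratio of the same sign in both comparisons, up to 12 (CD40) or 6 (PD1) per direction. Named genes against another cell type were the 12 called ones with the largest fold whose libraries did not overlap; mitochondrial, ribosomal, haemoglobin, immunoglobulin, T cell receptor, sex-linked and unnamed genes were left out. Non-classical monocytes were compared with other cells by edgeR 4.0.16 (quasi-likelihood, TMM, Benjamini-Hochberg, library as a block since both sums come from 1 library), checked on simulated counts, with DESeq2 1.42.0 as an alternative. Scrublet (scanpy 1.11.5) scored doublets, which were kept except in 1 alternative. Python 3.11.15, scipy 1.17.1 and R 4.3.3 were used. Gene coordinates come from the GENCODE vM21 annotation. A few genes counted in these lists are not reported here by name.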

Additional observations from a re-analysis of the deposited data

Results flagged for a closer look

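In the non-classical monocytes, 5 list genes had log2 ratios of opposite sign for 1 antibody with and without the other, each at least 0.75 in size with its counting interval off 0. Of 250 list genes examined for each antibody, 24 (CD40 antibody) and 26 (PD1 antibody) had opposite signs with intervals off 0, and 4 and 4 also passed that size. With 1 library per group, none of these differences between settings was tested. For the CD40 antibody, the log2 ratio with the PD1 antibody (combination against PD1) and without it (CD40 against control) was -2.29 and 0.98 for Ccl12, 0.99 and -0.78 for Cd14, 2.61 and -0.78 for Cxcl2, and -2.30 and 2.87 for Mmp12. For the PD1 antibody, the log2 ratio with the CD40 antibody (combination against CD40) and without it (PD1 against control) was -1.30 and 1.97 for Ccl12, 0.86 and -0.89 for Ccl3, 0.85 and -0.91 for Cd14, and 0.79 and -2.59 for Cxcl2. Mmp12 measured 1.21 (combination), 29.98 (CD40), 5.99 (PD1) and 4.09 CPM (control) and Cd14 143 (combination), 78.9 (CD40), 71.9 (PD1) and 135 CPM (control), so the first rests on few UMIs outside the CD40 library.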

How the results depend on the processing

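No paired analysis was possible between groups because each group is 1 library; the comparison of cell types has the library as a block, and without the replicate block it gave 1491 calls against classical monocytes and 3670 against C1q macrophages, where the block gave 1618 and 3745. All 23 alternatives kept these 2 counts within 1.5 times, those leaving out 1 library between 1329 and 1684 and between 3582 and 3925. The log2 ratio of shares for CD40 against control was 1.47 with the stricter gate and 1.42 in cells thinned before gating, where the first gate gave 1.132. For combination against PD1 it turned to 0.12 (stricter gate), 0.14 (thinned) and 0.51 (of myeloid cells), and for combination against CD40 it was -0.019 of myeloid cells. Counts of genes past 2-fold depended most on the filter on low values. They were 433 (thinned), 97 (50 CPM filter) and 2214 (no filter) for CD40 against control, 246, 50 and 1236 for combination against PD1, 198, 40 and 1475 for PD1 against control, and 15 (50 CPM) and 915 (no filter) for combination against CD40. With no filter the lower genes outnumbered the higher, by 1720 to 494, 781 to 455, 1114 to 361 and 506 to 409 in the same order. For the last, dropping the C1q limit gave 74, 23 higher and 51 lower in the combination, against 27 and 16, and weighting cells equally gave 34 higher and 8 lower. The alternatives that left out members meeting another gate, and the purer classical gate, were chosen after seeing the data. TMM scaling moved the median of all genes by under 0.1. Medians of lists turned sign in 16 cases. These were the suppressive list for CD40 against control (-0.19 without the C1q limit, -0.64 thinned) and combination against CD40 (0.048 looser gate, 0.10 without the Nos2 limit, 0.078 thinned, 0.12 equal weight), Fc receptors for CD40 against control (0.028 without the C1q limit), the check genes for combination against PD1 (-0.0086 stricter), type I interferon (0.038) and CD40 signalling (-0.017) for combination against PD1 (thinned), chemokines for PD1 against control (-0.25 without the C1q limit, -0.00199 without doublets, -0.50 thinned), MHC class II (-0.016 stricter) and Ly6 (-0.012 stricter, -0.027 thinned) for combination against CD40. Of 1080 values of named genes under alternatives, 169 moved beyond their counting interval, and 0 of those past 2-fold turned sign. The causes were not tested. Depth limits genes under 10 CPM, most in the control library with its 380 members.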

Other observations

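Iron and lysosomal genes of the non-classical monocytes were not described above. Fth1, the ferritin heavy chain, measured 9338 (combination), 7281 (CD40), 5922 (PD1) and 4915 CPM (control), and Hmox1, the haem-degrading oxygenase, 220.3 (combination), 170.1 (CD40), 127 (PD1) and 167 CPM (control), in both cases with the combination library highest. Ctsc, cathepsin C, measured 998 (combination), 798 (CD40), 654 (PD1) and 479 CPM (control), and was higher in each library with the CD40 antibody than in either without it. Gsdmd, the pore-forming gasdermin D, measured 239 (combination), 207 (CD40), 174 (PD1) and 128 CPM (control), and Casp1, caspase 1, 168 (combination), 139 (CD40), 143 (PD1) and 100.5 CPM (control). Tlr7, a sensor of RNA, averaged 96.7 ± 9.21 CPM in the non-classical and 31.4 ± 5.38 CPM in the classical monocytes (SD, n = 4 each), and was called higher in the non-classical monocytes (log2 ratio 1.61 ± 0.13 (SE), edgeR adjusted p = 0.00028). Tgfb1, the cytokine TGF-beta 1, measured 469.6 (combination), 469.8 (CD40), 623 (PD1) and 735 CPM (control), with no gene of this paragraph past 2-fold in any of the 4 comparisons.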
